A study of Mus musculus with 3 samples.

Results

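The interferon-gamma, IL-12 and CXCR3 axis was described through 9 genes, chosen by name from the 31053 genes of the deposited matrices: Ifng, Ifngr1, Il12b, Il12rb2, Stat4, Tbx21, Cxcl9, Cxcl10 and Cxcr3. All 9 were present in the files. Interferon-gamma, the product of Ifng, is made mainly by NK cells and activated T cells, and it acts on many cell types through a receptor whose ligand-binding chain is encoded by Ifngr1. IL-12 from dendritic cells and macrophages promotes its production through the IL-12 receptor, STAT4 and T-bet. Interferon-gamma in turn induces the chemokines CXCL9 and CXCL10, which attract T and NK cells that carry the receptor CXCR3.

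The study asked how WGP, a particulate beta-glucan made from yeast, alters the immune cells of the mouse pancreas. Live CD45+ cells, that is cells with the pan-leukocyte surface marker, were sorted from pancreas and sequenced as single cells in 3 libraries. Each condition had 1 library, from mice that received PBS, from mice killed 3 days after WGP (3-day WGP) or from mice killed 7 days after it (7-day WGP), injected into the peritoneal cavity per the study's methods. The labels state no genotype, strain, age or sex, and not how many mice were behind a library.

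Because each condition was a single library, no difference below has a replicate check and none was tested. Intervals in brackets are 95% intervals that cover counting error only, and they are too narrow where a few cells hold most of the molecules. Levels are given as CPM, the unique molecular identifiers (UMIs) of a gene per 1000000 UMIs summed over the cells of a class. Lists of 3 values are in the order PBS, 3-day WGP and 7-day WGP, and both WGP libraries were compared with the same PBS library.

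Cells were barcodes with at least 1000 UMIs and at most 30% mitochondrial UMIs. They numbered 5249, 4879 and 4174 (14302 in all), held between 41749724 and 51793608 UMIs per library and had a median of 5755, 5754 and 8077 UMIs. Transcripts of both sexes were present in every library, in unequal amounts. Xist without a Y-linked transcript was seen in 2039, 479 and 1208 cells and the reverse in 1736, 2510 and 1865 cells, so the mixture of mice differed between the libraries, and its part in the results cannot be told apart from that of WGP. The split also differed by class. Among monocyte/macrophage-like cells Xist alone was seen in 792, 84 and 577 cells. Y-linked transcripts alone were seen in 10, 493 and 595 of them. Among B-like cells the numbers were 313, 108 and 105 for Xist and 897, 350 and 255 for Y-linked transcripts. Values within either kind of cell are given beside the main results. The libraries shared 9, 1 and 5 cell barcodes in pairs, where 3.77, 3.22 and 3.00 were expected from the list sizes, and no level named in the analysis plan moved past its counting interval when the shared barcodes were removed. Free RNA, measured in barcodes of at most 100 UMIs, is given where it bears on a level.

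Classes were named from marker genes, and the genes of the pathway were left out of the components used for clustering. NK-like cells, marked by Ncr1, Klrb1c and Gzma, made up 2.11%, 7.89% and 8.94% of the cells (111, 385 and 373). Alpha-beta T-like cells made up 9.94%, 12.6% and 14.6% (522, 617 and 609). Monocyte/macrophage-like cells made up 16.1%, 16.0% and 35.5% (844, 779 and 1482), and different clusters filled this class in each library. Resident macrophage-like cells were 678, 120 and 43 of them, Arg1 macrophage-like cells 7, 428 and 328, Ly6C-high monocyte-like cells 106, 184 and 467, and inflammatory monocyte/macrophage-like cells 3, 31 and 615. The last of these clusters came almost wholly from the 7-day library, so that its cells and that library cannot be told apart.

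The promoters of Ifng and of the chemokine genes are shown because they stand at both ends of the loop, the ligand and the genes it induces. Each run is the 250 bases before the transcript start in RefSeq GRCm38.p6, written 5′ to 3′ on the strand of the gene, with letters that matched a searched motif in capitals. Cxcl9 (chr5:92328080-92328329) and Cxcl10 (chr5:92348890-92349139) lie on the minus strand and Ifng (chr10:118440796-118441045) on the plus strand.
Cxcl9: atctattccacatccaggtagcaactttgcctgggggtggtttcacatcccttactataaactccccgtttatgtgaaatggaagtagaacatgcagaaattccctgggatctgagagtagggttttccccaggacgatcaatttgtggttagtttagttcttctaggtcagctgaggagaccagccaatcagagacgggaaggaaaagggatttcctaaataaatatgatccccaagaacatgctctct
Cxcl10: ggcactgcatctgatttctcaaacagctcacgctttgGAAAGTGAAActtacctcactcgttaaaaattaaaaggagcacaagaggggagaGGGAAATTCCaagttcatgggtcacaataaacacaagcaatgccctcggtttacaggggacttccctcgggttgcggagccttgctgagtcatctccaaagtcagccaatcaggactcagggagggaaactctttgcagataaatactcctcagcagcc
Ifng: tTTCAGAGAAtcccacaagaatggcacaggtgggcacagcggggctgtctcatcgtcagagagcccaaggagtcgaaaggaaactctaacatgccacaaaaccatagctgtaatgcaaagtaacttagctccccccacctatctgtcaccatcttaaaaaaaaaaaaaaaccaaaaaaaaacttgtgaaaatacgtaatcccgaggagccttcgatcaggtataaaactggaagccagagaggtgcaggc

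The 4 motifs were searched on both strands of 32851 promoters of this length. The GAS (gamma-activated sequence) element (TTCNNNGAA) was in 7.02% of them, the core of the interferon-stimulated response element bound by IRF factors in 2.98%, a kappaB element in 1.21% and a T-box element (TCACACC) in 3.33%. The Cxcl10 promoter held the response element core at -213 and the kappaB element at -159 from the start, and the Ifng promoter held a GAS match at -249. Beyond these, Il12rb2 held a GAS match at -123 and an alternative Stat4 promoter a response element core at -97. No match was found in this window of Cxcl9, Il12b, Ifngr1, Tbx21 or Cxcr3, which says only that these letters were not there.

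Ifng (chr10:118441046-118445892, plus strand, GRCm38) encodes the ligand of the axis. Over all cells its level was 14.8, 18.7 and 63.5 CPM (685, 968 and 2652 UMIs). The 7-day library stood above the others, with a log2 ratio to PBS of 2.10 [1.98 to 2.22], while the 3-day ratio was 0.34 [0.19 to 0.48]. Among cells with a Y-linked transcript the 3-day ratio turned to -0.47, so no direction is given for day 3 over all cells, and the 7-day ratio was 1.23 there and 3.29 among Xist cells.

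NK-like cells held Ifng in every library. Their level was 181 CPM [147 to 220] in PBS, 235 CPM in 3-day WGP and 225 CPM in 7-day WGP (101, 417 and 559 UMIs). After each cell was thinned to 1000 UMIs, 18.9%, 14.8% and 15.5% of NK-like cells had an Ifng UMI, against 31.5%, 42.1% and 44.8% without thinning. The log2 ratios to PBS were 0.38 [0.06 to 0.71] at 3 days and 0.31 [0.00 to 0.63] at 7 days, but they were -0.076 and -0.019 with coarser clusters, so these data gave no direction for the Ifng level of NK-like cells. Within Xist cells the levels were 67.7, 252 and 146 CPM (50, 14 and 95 cells), and within cells with Y-linked transcripts 211, 253 and 241 CPM. NK-like cells were a larger share of both WGP libraries, and they held 14.7%, 43.1% and 21.1% of the Ifng UMIs of their libraries. In the 3-day library NK-like cells were the class with the most Ifng UMIs.

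Alpha-beta T-like cells were the class with the most Ifng UMIs in the PBS and 7-day libraries, with 36.2%, 28.6% and 62.6% of the UMIs of the library. Their level was 104 CPM in PBS, 81.1 CPM in 3-day WGP and 367 CPM in 7-day WGP (248, 277 and 1661 UMIs), and the share of thinned cells with a UMI was 7.28%, 6.65% and 13.0%. At 7 days the level was 1.82 log2 units above PBS [1.63 to 2.02], and at 3 days it was 0.36 log2 units below, a ratio of -0.36 [-0.61 to -0.10] that became -0.018 with coarser clusters. The 7-day excess was carried by few cells: 29 of the 188 positive cells held at least 10 UMIs each and together 76.3% of the molecules. A single cell with 488 Ifng UMIs, 5.40% of its 9032 UMIs, had Cd8 transcripts and no Cd4, and it was among the cells with the highest doublet scores. Without the highest cell of each library the 7-day ratio was 1.51, and with the highest doublet scores removed it was 1.33. Within Xist cells the levels were 50.2, 9.21 and 247 CPM, and within cells with Y-linked transcripts 146, 134 and 300 CPM. These cells were spread unequally over the clusters of the class. Of the Xist cells 32 of 133, 112 of 142 and 81 of 203 lay in cluster 11, which had 4, 5 and 0 Ifng UMIs. Of the cells with Y-linked transcripts 64 of 190, 50 of 214 and 6 of 265 lay there.

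Ifng was higher in the 7-day library in Cd8 cells, in Cd4 cells and in cells of this class with neither transcript. Cells with Cd8 and no Cd4 transcripts were at 66.6, 49.0 and 471 CPM, and cells with Cd4 and neither Cd8 nor Foxp3, the regulatory T cell factor, were at 90.3, 117 and 353 CPM. The 7-day log2 ratios were 2.82 [2.37 to 3.31] and 1.97 [1.58 to 2.38] in that order, and the cell with 488 UMIs made up most of the 854 UMIs of the Cd8 cells. Without the highest cell of each library the Cd8 cells were at 52.9, 39.3 and 203 CPM (7-day ratio 1.94) and the Cd4 cells at 54.0, 49.5 and 312 CPM (2.53), so both 7-day levels stayed above PBS. Cells with no Cd4, Cd8 or Foxp3 UMI held 136, 129 and 461 Ifng UMIs (256, 266 and 202 cells). In PBS and 3-day WGP that was more than in Cd8 cells (42 and 59) or Cd4 cells (64 and 84). The level without these transcripts was 143, 108 and 330 CPM, and 111, 95.2 and 221 CPM without the highest cell. The 7-day ratio was then 0.99 in place of 1.20. Cells with a Foxp3 UMI held 5, 4 and 25 Ifng UMIs. Of the 3 clusters of this class, cluster 7 (leading genes Xcl1 and Ccl5) was at 183, 119 and 453 CPM and cluster 12 at 98.8, 173 and 432 CPM, while cluster 11 had 4, 5 and 0 Ifng UMIs. The cell with 488 UMIs lay in cluster 7, and cells with 26, 49 and 154 UMIs lay in cluster 12. Without the highest cell of each library the 7-day ratio was 0.73 in place of 1.31 in cluster 7 and 2.37 in place of 2.13 in cluster 12, with 3-day levels of 110 and 109 CPM.

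**Figure D1:**
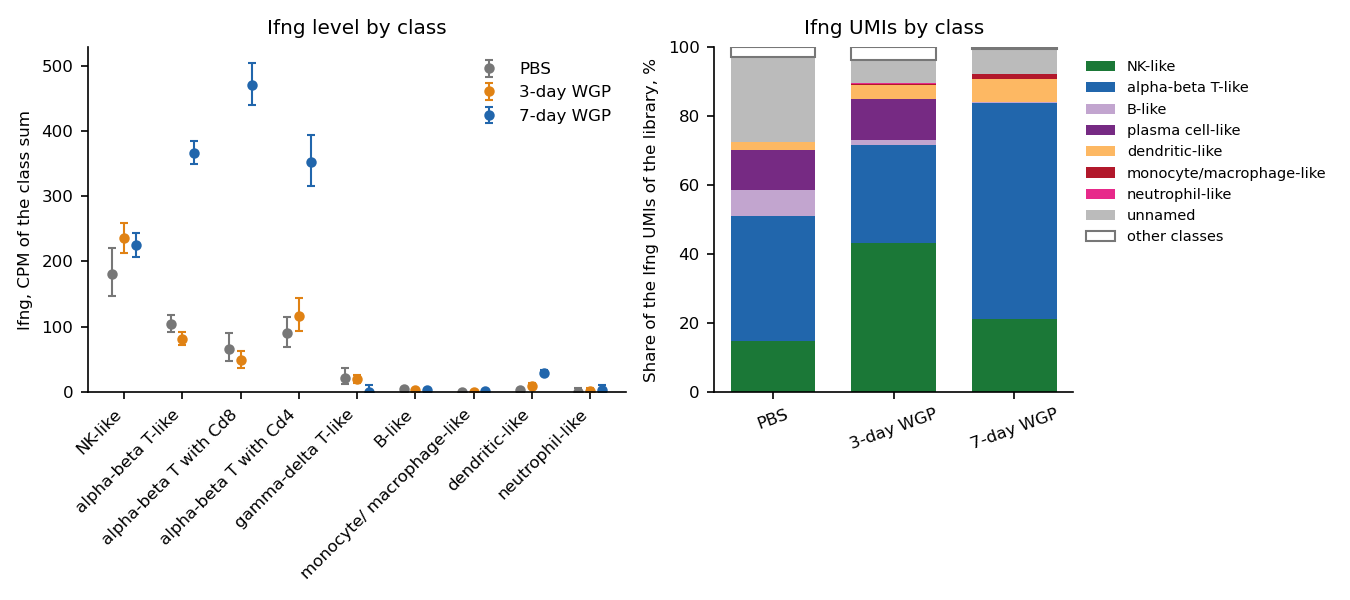
Ifng by class and library. Left: Ifng level as CPM of the class sum (points) with 95% Poisson intervals (bars, counting error only), in which NK-like cells lie between 181 and 235 CPM in all 3 libraries and alpha-beta T-like cells reach 367 CPM in the 7-day library only. Right: share of the Ifng UMIs of each library held by each class, where NK-like cells hold 43.1% at 3 days and alpha-beta T-like cells 62.6% at 7 days.

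Outside these classes the most Ifng was in clusters without a name. Cluster 19, which carried B and T cell markers, was at 77.0, 33.1 and 161 CPM (150, 17 and 35 UMIs) and held 21.9%, 1.76% and 1.32% of the Ifng UMIs of the libraries, the first a larger share than that of NK-like cells in PBS. A single cell held 62 of its 150 PBS UMIs. That cell had 49466 UMIs in total and was among the cells with the highest doublet scores. Without the highest cell of each library the cluster was at 46.3, 18.1 and 107 CPM. Cluster 23 (leading genes Stmn1, Pclaf and Top2a), whose cells are marked by cell division genes, was at 52.5, 77.6 and 120 CPM (17, 47 and 159 UMIs). Gamma-delta T-like cells, which carried Il17a, were at 22.1, 19.2 and 0 CPM, with 10 of 14 PBS UMIs and 27 of 35 3-day UMIs in 1 cell each and 0 UMIs in the 61 cells of the 7-day library. B-like cells were at 4.39, 2.67 and 2.57 CPM and plasma cell-like cells at 9.79, 6.42 and 1.46 CPM (79, 117 and 5 UMIs), all below the free RNA of the same libraries, which held Ifng at 11.2, 18.3 and 37.7 CPM. Monocyte/macrophage-like cells had 0, 4 and 38 Ifng UMIs, and 12 of the 17 positive cells of the 7-day library also had a T or NK marker UMI (Cd3e, Cd3d, Cd3g, Trac, Nkg7 or Klrb1c), against 5.05% of the cells of this class without Ifng. Dendritic-like cells had 16, 37 and 172 Ifng UMIs, and 7 of 7, 12 of 12 and 20 of 21 positive cells carried such a marker, so that 99.4% of the UMIs of the 7-day library lay in barcodes with T or NK transcripts.

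Il12b (chr11:44400063-44414033, plus strand) encodes the p40 chain of IL-12. It was rare, with 41, 98 and 120 UMIs in 6, 16 and 21 cells of the 3 libraries. Migratory DC-like cells, marked by Ccr7, Fscn1 and Ccl22, held 95.1%, 27.6% and 83.3% of these UMIs, at 233, 73.0 and 231 CPM. Single cells held 36 of 39, 14 of 27 and 45 of 100 UMIs of this class, and without them it was at 18.9, 35.6 and 132 CPM, so no direction is given. In the 3-day library monocyte/macrophage-like cells had 40 Il12b UMIs, 23 of them in a single inflammatory cell, and cDC1-like cells had 20, of which 19 were in 1 cell. NK-like, alpha-beta T-like and B-like cells had 0 UMIs in all libraries. Over all dendritic-like cells the level was 8.07, 12.4 and 19.0 CPM, with log2 ratios to PBS of 0.62 [-0.02 to 1.26] and 1.23 [0.70 to 1.79]. With the highest cell of each library removed these became 3.19 and 3.80, and without the deepest barcodes, those past the knee of the curve of UMIs by rank, they were -0.62 and -0.47, so no direction is given for Il12b in dendritic-like cells.

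The highest levels of the IL-12 receptor chain were in NK-like cells. Il12rb2 (chr6:67291318-67376188, minus strand), the signalling chain of the IL-12 receptor, was at 46.6, 47.4 and 69.5 CPM in NK-like cells. In alpha-beta T-like cells it was at 5.02, 10.2 and 30.2 CPM (12, 35 and 137 UMIs), a log2 ratio of 1.03 [0.05 to 2.11] at 3 days and 2.59 [1.74 to 3.58] at 7 days. Dendritic-like cells were at 6.25, 5.79 and 9.82 CPM (31, 22 and 57 UMIs), and in PBS they held 28.2% of the Il12rb2 UMIs, beside 23.6% in NK-like and 10.9% in alpha-beta T-like cells. At 7 days these shares were 11.4%, 34.6% and 27.4%. Cluster 23 was at 15.4, 13.2 and 45.9 CPM (5, 8 and 61 UMIs). B-like cells had 4, 1 and 0 UMIs, and gamma-delta T-like cells had 1 UMI in each library. The T-like level of the 7-day library was above that of free RNA, 8.83 CPM.

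Stat4 (chr1:51987148-52107189, plus strand), the factor that carries the IL-12 signal to the nucleus, was at 206, 229 and 267 CPM in NK-like cells and at 131, 125 and 165 CPM in alpha-beta T-like cells. The NK-like intervals of PBS and 3-day WGP overlapped, and the 7-day ratios were 0.38 [0.09 to 0.67] and 0.33 [0.14 to 0.53]. B-like cells were lower, at 50.8, 38.7 and 64.8 CPM, but being many they held 34.0% of the Stat4 UMIs of the PBS library, more than alpha-beta T-like (17.6%) or NK-like cells (6.49%), and 8.55% of those of the 7-day library. Gamma-delta T-like cells were at 97.9, 82.9 and 135 CPM and ILC2-like cells at 94.0, 104 and 85.3 CPM, the last from 11 cells. Over all cells the ratios were -0.12 and 0.56, and the first was 0.021 when the sums were scaled by TMM (trimmed mean of M values), so no direction is given for day 3. Migratory DC-like cells showed a wider range, 29.8, 119 and 240 CPM from 17, 43 and 50 cells (5, 44 and 104 UMIs), with log2 ratios of 2.00 [0.67 to 3.69] and 3.01 [1.74 to 4.66]. In monocyte/macrophage-like cells Stat4 stayed between 4.26 and 6.99 CPM.

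Tbx21 (chr11:97098071-97115331, minus strand) encodes T-bet, a factor that directs Ifng transcription. Its level in NK-like cells was 159, 133 and 120 CPM, with ratios to PBS of -0.26 [-0.62 to 0.11] and -0.41 [-0.76 to -0.05]. Without the highest cell of each library these were -0.19 [-0.56 to 0.19] and -0.35 [-0.70 to 0.03], so no direction is given. In alpha-beta T-like cells the Tbx21 level was 42.3, 47.4 and 43.3 CPM, and the 7-day ratio was 0.03 [-0.32 to 0.39] in the class in which Ifng was 1.82 log2 units above PBS. Over all cells Tbx21 was at 7.14, 12.4 and 17.5 CPM, and T and NK-like cells together held 60.3%, 65.8% and 68.3% of its UMIs.

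Ifngr1 (chr10:19591949-19610229, plus strand), the ligand-binding chain of the interferon-gamma receptor, was found in nearly every class. In PBS the order was gamma-delta T-like cells at 1039 CPM, NK-like cells at 502 CPM, cDC1-like cells at 348 CPM, alpha-beta T-like cells at 342 CPM, monocyte/macrophage-like cells at 321 CPM and cDC2-like cells at 278 CPM. The cDC1-like, alpha-beta T-like and monocyte/macrophage-like values did not differ beyond their counting intervals. B-like cells were at 79.8, 65.0 and 63.2 CPM, below the free RNA of 147, 187 and 293 CPM. Ly6C-low monocyte-like cells had 808, 1033 and 816 CPM from 50, 16 and 29 cells.

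Ifngr1 was higher in the 7-day library in NK-like and alpha-beta T-like cells. NK-like cells had 502, 600 and 956 CPM, with ratios to PBS of 0.26 [0.07 to 0.45] and 0.93 [0.75 to 1.11]. Alpha-beta T-like cells had 342, 307 and 541 CPM, and those with Cd4 and neither Cd8 nor Foxp3 had 205, 196 and 615 CPM, a 7-day ratio of 1.59 [1.32 to 1.86]. Monocyte/macrophage-like cells had 321, 288 and 286 CPM, the last close to free RNA, and the Ly6C-high monocyte-like cells within them had 564, 527 and 422 CPM, a 7-day ratio of -0.42 [-0.55 to -0.29]. Neutrophil-like cells had 111, 247 and 143 CPM, the first and last below the free RNA of their libraries (147 and 293 CPM).

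**Figure D2:**
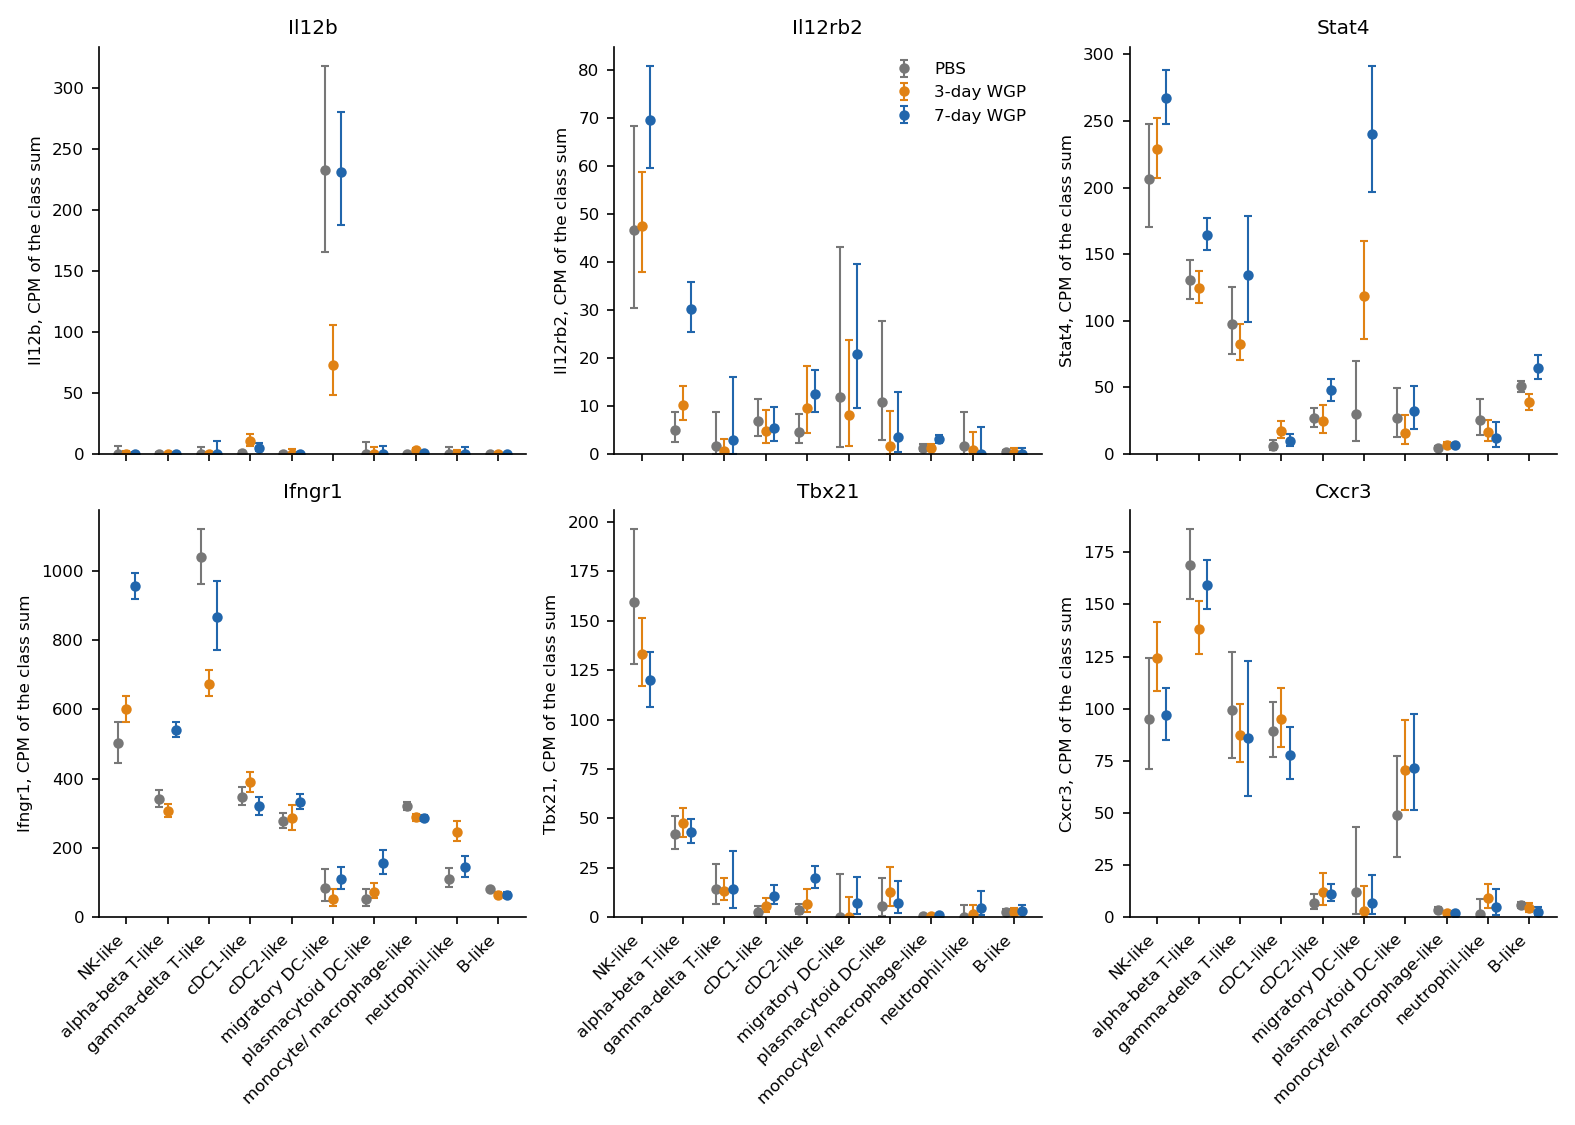
Levels of Il12b, Il12rb2, Stat4, Ifngr1, Tbx21 and Cxcr3 by class (CPM of the class sum, points, with 95% Poisson intervals as bars that cover counting error only; each panel has its own axis). Il12b stands at 233, 73.0 and 231 CPM in migratory DC-like cells and at most 10.7 CPM in the other classes shown, Il12rb2 and Tbx21 are highest in NK-like cells, and Ifngr1 in NK-like cells is 502 CPM in PBS and 956 CPM in the 7-day library.

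Cxcl9 (chr5:92321347-92328079, minus strand) encodes a chemokine that binds CXCR3 and is induced by interferon-gamma. Over all cells it was at 35.4, 31.0 and 714 CPM (1635, 1606 and 29790 UMIs), a log2 ratio of -0.19 [-0.29 to -0.09] at 3 days and 4.33 [4.26 to 4.41] at 7 days. Monocyte/macrophage-like cells held 61.0%, 67.6% and 78.4% of these UMIs and dendritic-like cells 18.2%, 18.6% and 15.8%. A single fibroblast-like cell with 310 UMIs held 19.0% of the Cxcl9 UMIs of the PBS library. Without the highest cell of each library the ratios were -0.010 and 4.62, so no direction is given for day 3.

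In monocyte/macrophage-like cells Cxcl9 was at 109, 92.5 and 1334 CPM. The share of thinned cells with a UMI was 1.54%, 3.59% and 31.2%, and of B-like cells, which should lack the gene, 0%, 0% and 0.794% (0 of 1931 and 0 of 799 B-like cells in the first 2 libraries, which allow a share of up to 0.155% and 0.375% of cells with a UMI after thinning). Without thinning the B-like cells of these libraries held 6 and 2 Cxcl9 UMIs. The 7-day ratio was 3.61 [3.52 to 3.71], and it was 3.09 among Xist cells and 4.72 among cells with Y-linked transcripts, of which PBS had 10 with 0 Cxcl9 UMIs, so the last value is a lower bound against the floor of 3 counts. The 3-day ratio of -0.23 [-0.36 to -0.11] rested on few cells, since 28 PBS cells held all 998 UMIs and 1 of them 248. It was -0.010 without the highest cell of each library and 0.16 with log-normalized clusters, so no direction is given for day 3.

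Within the class, the inflammatory monocyte/macrophage-like cells of the 7-day library were at 2472 CPM and held 59.2% of all Cxcl9 UMIs of that library, with 51.9% of thinned cells positive. Cxcl9 and Cxcl10 were among the leading genes of this cluster although both were left out of the components. Arg1 macrophage-like cells were at 43.6, 101 and 829 CPM, where PBS had 7 such cells, and the ratio of 7 to 3 days was 3.03 [2.92 to 3.15]. Free RNA of the 7-day library held Cxcl9 at 558 CPM, below these levels, and B-like cells of that library held 10.3 CPM. Resident macrophage-like cells were at 64.5, 23.2 and 29.1 CPM, low values beside the class as a whole. Ly6C-high monocyte-like cells were at 434, 23.6 and 330 CPM, the last of these below free RNA, and the PBS value came from 5 of 106 cells, against 7 of 184 at 3 days and 129 of 467 at 7 days. A single cell held 248 of the 504 PBS UMIs, and without the highest cell of each library the levels were 224, 4.68 and 302 CPM, with the 7-day level above PBS in place of below it.

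Dendritic-like and neutrophil-like cells carried Cxcl9 as well. The cDC1-like cells, marked by Xcr1 and Clec9a, were at 96.6, 55.4 and 727 CPM, the cDC2-like cells at 39.8, 160 and 958 CPM and the migratory DC-like cells at 29.8, 124 and 894 CPM, with 7-day ratios of 2.91, 4.59 and 4.91. In PBS 1 cell held 88 of the 94 cDC2-like UMIs and another all 5 of the migratory DC-like UMIs, and without the highest cell of each library the cDC2-like cells were at 2.56, 86.1 and 897 CPM. Neutrophil-like cells had 0, 0 and 640 UMIs, at least 7.68 log2 units above the floor of 3 counts in PBS, and 975 CPM in the 7-day library was above its free RNA of 558 CPM. In NK-like cells 215 of the 313 UMIs of the 7-day library lay in 1 cell, and 12 of 15 positive cells had a myeloid marker UMI (Lyz2, Csf1r, Itgam or Cd68), beside 65.9% of the negative ones. Alpha-beta T-like cells of the 7-day library were at 21.6 CPM, and these levels of lymphocytes were below free RNA.

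Cxcl10 (chr5:92346638-92348889, minus strand) encodes another CXCR3 ligand and lies next to Cxcl9 on the chromosome. Over all cells it was at 19.6, 26.7 and 550 CPM (907, 1381 and 22957 UMIs), with ratios to PBS of 0.44 [0.32 to 0.57] and 4.81 [4.71 to 4.91]. Monocyte/macrophage-like cells held 38.0%, 38.5% and 71.6% of the UMIs, at 37.6, 45.3 and 939 CPM. Their 7-day ratio was 4.64 [4.49 to 4.80], and 3.93 and 2.35 among Xist cells and among cells with Y-linked transcripts, of which PBS had 10 with 12 UMIs. The 3-day ratio of 0.27 [0.07 to 0.47] turned to -0.61 and -2.59 in those cells and to -1.20 without barcodes above the knee, so no direction is given for day 3. A single cell held 122 of the 345 PBS UMIs of the class, and without the highest cell of each library the levels were 24.4, 40.2 and 920 CPM.

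Neutrophil-like cells had the highest Cxcl10 level of the named classes at 7 days. They were at 20.6, 124 and 3007 CPM (13, 152 and 1974 UMIs), with log2 ratios of 2.59 [1.77 to 3.53] and 7.19 [6.41 to 8.10], and 1.08%, 5.79% and 30.1% of thinned cells had a UMI. In PBS 11 of the 13 UMIs were in 1 cell, and without the highest cell of each library the levels were 3.23, 99.2 and 2811 CPM. The 7-day level was above the free RNA of that library, 433 CPM, and the class held 8.60% of its Cxcl10 UMIs. Inflammatory monocyte/macrophage-like cells were at 1703 CPM at 7 days and held 52.9% of the UMIs. Ly6C-high monocyte-like cells were at 172, 83.2 and 444 CPM, with ratios of -1.05 [-1.33 to -0.76] and 1.37 [1.16 to 1.58], and the last level was close to that of free RNA. The PBS cell with 122 UMIs lay here, among 200, and without the highest cell of each library the levels were 67.8, 60.7 and 418 CPM and the ratios -0.16 [-0.56 to 0.25] and 2.62 [2.30 to 2.97], so no direction is given for day 3.

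Cxcl10 was also found outside the phagocytes. Dendritic-like cells were at 23.6, 6.58 and 373 CPM, with ratios of -1.84 [-2.53 to -1.21] and 3.98 [3.71 to 4.26], and the 7-day level was below free RNA. Their classes differed at 7 days. The cDC2-like cells were at 608 CPM (519 CPM without the highest cell), above the free RNA of 433 CPM. The cDC1-like, migratory DC-like and plasmacytoid DC-like cells were below it, at 160, 330 and 12.5 CPM. An unnamed cluster (cluster 26, leading genes Sst, Cxcl13, Igfbp7, Dcn and Plvap) had raised markers of both fibroblasts and endothelial cells, with mean log2 folds of 4.14 and 3.94. Its Cxcl10 level was 37.2, 593 and 1965 CPM from 54, 23 and 22 cells, and 18.4, 350 and 1275 CPM without the highest cell of each library. Alpha-beta T-like cells were at 7.54, 9.66 and 139 CPM (18, 33 and 630 UMIs), below free RNA in each library, while B-like cells held 1.01, 0.445 and 10.3 CPM. Among thinned monocyte/macrophage-like cells of the 7-day library 462 had Cxcl9, 326 had Cxcl10 and 192 had both, that is 41.6% of the Cxcl9 cells and 58.9% of the Cxcl10 cells, where 22.0% of all cells of the class had Cxcl10. The class mixes clusters of unlike levels. In inflammatory cells 47.0% of the Cxcl9 cells had Cxcl10, beside 34.5% of all cells. These shares were 35.3% and 15.9% in Arg1 macrophage-like cells and 20.4% and 12.8% in Ly6C-high monocyte-like cells.

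**Figure D3:**
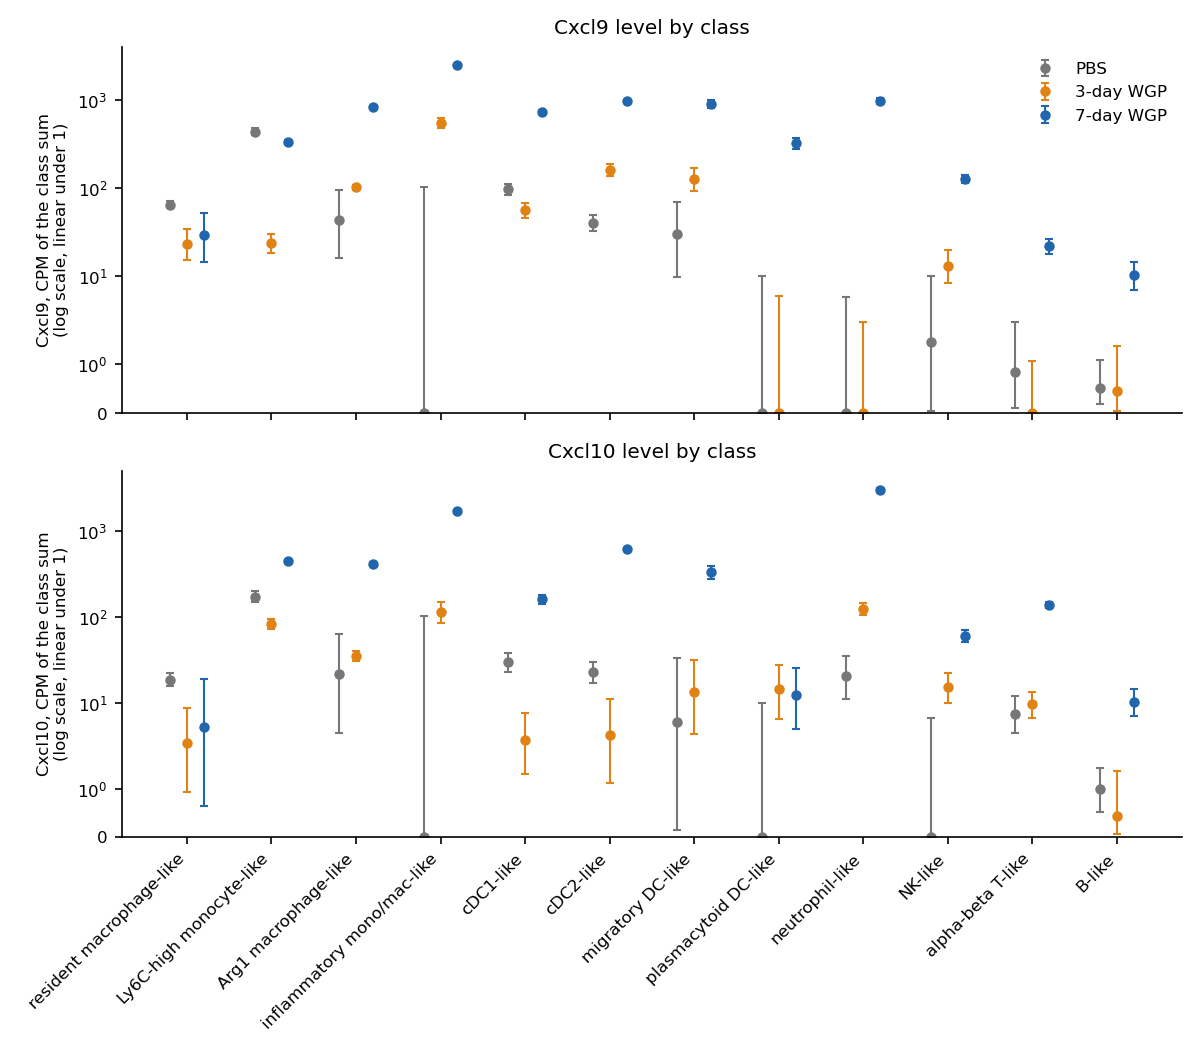
Cxcl9 (top) and Cxcl10 (bottom) levels by class and library as CPM of the class sum, on a log axis that is linear under 1, with 95% Poisson intervals as bars (counting error only). Inflammatory monocyte/macrophage-like cells of the 7-day library reach 2472 CPM of Cxcl9, neutrophil-like cells 3007 CPM of Cxcl10, and B-like cells stay at 10.3 CPM of either gene.

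**Figure D4:**
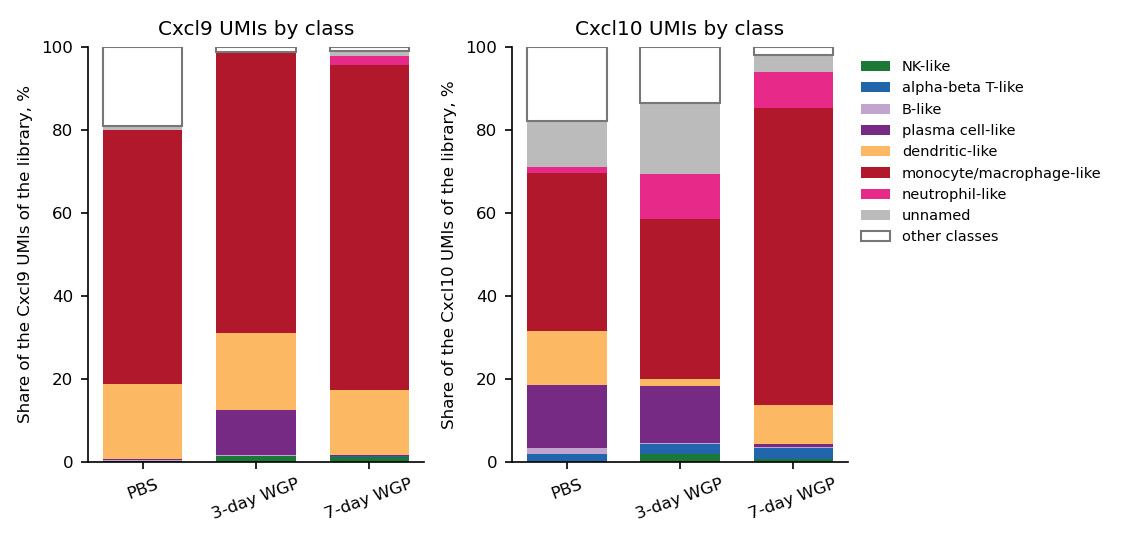
Share of the Cxcl9 (left) and Cxcl10 (right) UMIs of each library held by each class. Monocyte/macrophage-like cells hold 78.4% of Cxcl9 and 71.6% of Cxcl10 at 7 days, and neutrophil-like cells hold 11.0% and 8.60% of Cxcl10 at 3 and 7 days.

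Cxcr3 (chrX:101731535-101734269, minus strand), the receptor of both chemokines, was carried by T and NK-like cells in all 3 libraries. Alpha-beta T-like cells were at 169, 138 and 159 CPM, NK-like cells at 95.0, 124 and 96.9 CPM and gamma-delta T-like cells at 99.5, 87.3 and 85.9 CPM, the last of which did not differ from NK-like cells beyond their intervals in PBS. Over T and NK-like cells together the ratios to PBS were -0.25 [-0.41 to -0.09] and -0.11 [-0.26 to 0.05], and 0.16 and 0.34 among cells with Y-linked transcripts, so no direction is given. cDC1-like cells also carried it, at 89.3, 94.8 and 77.8 CPM, while cDC2-like cells were at 6.78, 11.8 and 11.1 CPM. Plasmacytoid DC-like cells were at 48.8, 70.3 and 71.6 CPM.

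The genes around the members were taken from a list of 51 ligands, receptor chains, factors, chemokine genes and interferon-gamma response genes, of which 50 were in the files and Cxcl11, the third CXCR3 ligand, was not in the matrices. A gene counted as past the fold when its log2 ratio on CPM + 10 was at least 1 or at most -1, among genes of at least 10 CPM in either library compared. Scaling by TMM would add 0.14 to the 3-day and 0.26 to the 7-day ratios of monocyte/macrophage-like cells, 0.14 to the 3-day ratios over all cells, 0.12 to the 7-day ratios of Ly6C-high monocyte-like cells and less than 0.1 to the others. In monocyte/macrophage-like cells at 7 days 25 of 35 such list genes were past the fold upward, where 4.01% of all 8126 genes were, and 0 were past it downward, where 5.7% of all genes were. The largest were Cxcl10 (4.32), the GTPase genes Gbp2 (3.58), Gbp4 (3.36) and Gbp5 (3.04), Cxcl9 (3.50), Cd274, the gene of PD-L1 (2.99), Nos2, the inducible nitric oxide synthase (2.98, with 0 UMIs in PBS), and Serpina3g (2.93). Of the 19 interferon-gamma response genes over the filter 18 were past the fold upward, and the list median was 1.48 beside -0.12 over all genes. Members made up 2 of these genes, and Ifngr1 was not past the fold.

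At 3 days 8 of 32 list genes were past the fold upward in monocyte/macrophage-like cells, where 3.45% of all genes were, and 0 downward, where 3.44% were. Among them were Gbp2 (2.28), Cd274 (2.22), Socs3, a feedback inhibitor of cytokine signals (1.72), the transcription factor gene Irf1 (1.32), Gbp5 (1.27), Gbp3 (1.19) and Wars (1.19). No member was past the fold upward. The list median was 0.35 beside -0.05 over all genes.

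Since the clusters behind this class differed between libraries, the list was also read in the Ly6C-high monocyte-like cells alone, a set added after the class values were seen. At 7 days 14 of 36 list genes were past the fold upward, where 2.01% of all genes were, and 0 downward, where 1.82% were. Gbp2b (2.81), Gbp4 (2.45), Socs1 (2.32), Socs3 (2.24), Irf1 (1.75), Gbp2 (1.73), Gbp3 (1.59) and Gbp7 (1.51) had the largest ratios, Cxcl10 was past the fold (1.32) and Cxcl9 was at -0.39, a sign that rested on the PBS cell with 248 UMIs. At 3 days 4 of 36 list genes were past the fold upward, where 1.88% of all genes were, among them Socs3, Stat4 and Irf1. Stat4 had 0 UMIs in PBS and 30 in 3-day WGP (11.6 CPM), below the free RNA of the 3-day library, 22.6 CPM. Downward there were 2, where 1.97% of all genes were, namely Cxcl9 (-3.72) and Serpina3g (-1.07).

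In NK-like cells 11 of 36 list genes were past the fold upward at 7 days, where 1.34% of all genes were, and 0 downward, where 0.54% were. Next to Cxcl9 (3.53) and Cxcl10 (2.81), whose levels were below the free RNA of that library, the genes past the fold included Igtp (1.93), Gbp2 (1.76), Irf8 (1.32), Gbp5 (1.26) and Socs1 (1.21). Free RNA was measured for the members only, so its part in the levels of these other genes was not tested. At 3 days Cxcl10 alone was past the fold upward (1.34), where 0.557% of all genes were. It had 0 UMIs in PBS and 27 in 3-day WGP (15.2 CPM), below the free RNA of the 3-day library, 32.5 CPM. Downward, 0 genes were past the fold, where 0.734% of all genes were. Il12rb2, Stat4, Tbx21, Ifng, Ifngr1 and Cxcr3 were not past the fold in NK-like cells at either time.

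Over all cells 23 of 44 list genes were past the fold upward at 7 days, where 3.58% of all genes were, and 0 downward, where 1.46% were. The members among them were Cxcl10 (4.24), Cxcl9 (4.00) and Ifng (1.57). At 3 days Gbp2 (1.39) was past the fold, where 1.15% of all genes were past it upward and 0.723% downward. In sums over all cells a larger share of a cell type and more RNA of the gene per cell cannot be told apart.

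**Figure D5:**
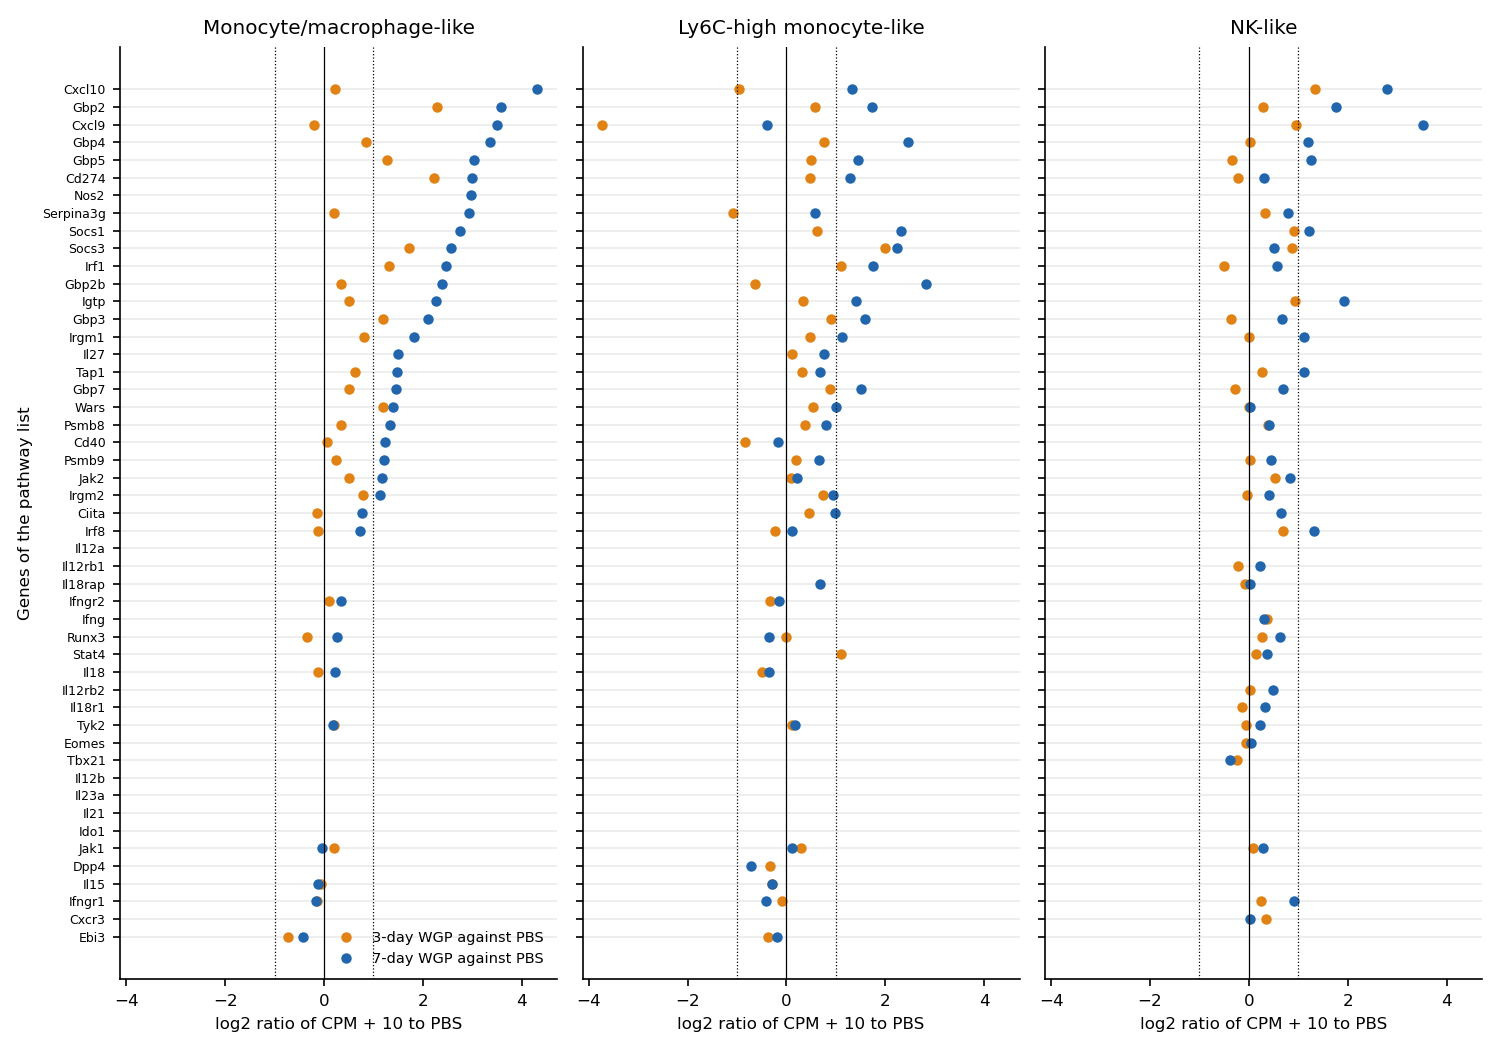
Log2 ratios to PBS on CPM + 10 of the pathway list genes over the filter in monocyte/macrophage-like, Ly6C-high monocyte-like and NK-like cells, at 3 and 7 days; dotted lines mark the fold of 1 and -1. 1 gene counted in the text is not drawn. At 7 days most drawn genes of the monocyte/macrophage-like cells lie right of the upper line and 0 lie left of the lower line in the 3 panels, while at 3 days Cxcl9 (-3.72) and Serpina3g (-1.07) lie left of it in the Ly6C-high monocyte-like cells.

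The genes whose levels were most like those of the members were found by Pearson correlation of log2(CPM + 10) over 42 sums of class by library of at least 30 cells, among 6389 genes. These sums share libraries and cell types, and the values are a description. For Ifng they were Cd160 (0.94), Klrc1 (0.93), Crtam (0.92), Sh2d1a (0.92) and Klra7 (0.91), with Tbx21 at 0.91 and Il12rb2 at 0.80. The other members were at 0.69 (Cxcr3), 0.64 (Stat4), 0.53 (Ifngr1), 0.08 (Cxcl9), 0.08 (Cxcl10) and -0.07 (Il12b). For Il12b they were Tmem150c (0.96), Nudt17 (0.96), Stap2 (0.95), Slco5a1 (0.95) and Arhgap28 (0.93), with members between -0.12 (Tbx21) and 0.39 (Cxcl9). The Il12b values rest mainly on the migratory DC-like sums of 3-day and 7-day WGP (73.0 and 231 CPM). In PBS this class had 17 cells and was not among the sums. For Cxcl9 they were Slamf8 (0.81), Batf2 (0.81), Rbbp8 (0.79), Ifi205 (0.79) and Ifi211 (0.78), with Cxcl10 at 0.66. The other members were between -0.05 (Cxcr3) and 0.39 (Il12b). For Cxcr3 they were Cdca7l (0.82), Kbtbd11 (0.81), Fam189b (0.79), Cd247 (0.78) and Cd3d (0.76). Members ranged from -0.11 (Il12b) to 0.72 (Tbx21), with Cxcl9 at -0.05 and Cxcl10 at -0.01.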

How the data were processed

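Single-cell RNA-seq libraries were made with 10x 3′ version 3.1 chemistry from sorted CD45+ pancreas cells. The authors deposited raw UMI counts per gene and barcode for each library, made with Cell Ranger 3.1.0 on mm10 per the labels, with every barcode kept and no normalization. The 9 members, the pathway list and the classes were chosen with earlier results of these data known.

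Barcodes with at least 1000 UMIs and at most 30% mitochondrial UMIs were kept. Total depth was between 48219246 and 56849043 UMIs per library, which limits the precision of rare genes such as Il12b. The 3 libraries were pooled and clustered in Seurat 5.3.0 and sctransform 0.4.2 (R 4.3.3; 3000 variable genes, 40 pathway genes left out, 33 clusters). A cluster was named when at least 3 markers of a class were raised with a mean log2 fold of at least 1 and a margin of 0.5, so the names were rebuilt here and may differ from those of the study. Doublets were kept. Scrublet (scanpy 1.11.5) marked 0, 0 and 2 cells by its own threshold, which does not show that doublets were absent. As an alternative, the 220, 190 and 139 cells with the highest doublet scores were removed. Counts were summed per class and library and given as CPM with exact Poisson intervals, ratios with exact conditional binomial intervals and shares with Clopper-Pearson intervals, in Python 3.11.15 with scipy 1.17.1. Shares of cells with a UMI were taken after thinning each cell to 1000 UMIs. No test was made with 1 library per condition. The fold calls and the alternatives, with TMM factors from edgeR 4.0.16, were tested on simulated data. Named were the 9 members, up to 8 list genes past the fold with the largest ratio in each comparison, and the 5 genes most like Ifng, Il12b, Cxcl9 and Cxcr3. Counts are over the whole list, of which 1 gene is not reported here by name. Gene positions are from GENCODE on GRCm38 and promoters from RefSeq. Alternatives were other limits on barcodes, clusterings, pseudocounts, folds and scalings, removal of the highest cell of each library, and cells with Xist or Y-linked transcripts alone.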

Additional observations from a re-analysis of the deposited data

Results flagged for a closer look

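Several genes had log2 ratios to PBS of opposite sign at 3 and 7 days, and several of the 3-day signs depended on a setting or a single cell. With 1 library per time these differences between the times were not tested, and both ratios use the same PBS library. In alpha-beta T-like cells the log2 ratio of Ifng was -0.36 at 3 days (-0.018 with coarser clusters) and 1.82 at 7 days, and that of Ifngr1 -0.16 and 0.66. Over all cells Stat4 was at -0.12 and 0.56, where TMM scaling turned the first to 0.021, and Cxcl9 at -0.19 and 4.33, where the first was -0.010 without the highest cell of each library. In monocyte/macrophage-like cells Cxcl9 was at -0.23 and 3.61, where the first was -0.010 without the highest cell and 0.16 with log-normalized clusters, so it gave no direction. In dendritic-like cells Cxcl10 was at -1.84 and 3.98, and at -1.92 and 4.12 without the highest cell of each library. The 3-day value came from 25 UMIs in 12 cells, and the levels of both WGP libraries were below their free RNA. Within the dendritic-like cells, the cDC2-like cells of the 7-day library were above it, at 608 CPM.

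Barcodes of at most 100 UMIs, which were not used as cells, held transcripts of the members above the PBS level. Free RNA of the 7-day library held Cxcl9 at 558 CPM, Cxcl10 at 433 CPM, Ifngr1 at 293 CPM, Stat4 at 53.4 CPM, Ifng at 37.7 CPM, Cxcr3 at 23.9 CPM, Tbx21 at 22.6 CPM and Il12rb2 at 8.83 CPM. That of the 3-day library held Ifngr1 at 187 CPM, Cxcl9 at 39.6 CPM and Cxcl10 at 32.5 CPM. The part of this RNA in the levels of the classes was not tested.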

How the results depend on the processing

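Of 403 values recomputed under an alternative, 245 stayed within the counting interval or the allowed range, 141 moved past it and 17 changed sign. The cause of these moves was not tested. No paired analysis was possible because each condition was 1 library. Removal of the highest cell of each library, removal of shared barcodes, the Ly6C-high monocyte-like cells Ifng in alpha-beta T-like cells, and TMM scaling of Stat4 and Cxcl9 over all cells were added after seeing the data. With coarser clusters (resolution 0.8) the cDC2-like and migratory DC-like clusters lost their names.

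Values below are in the order 3 and 7 days, as log2 ratios to PBS. With at least 2000 UMIs per barcode Ifng in NK-like cells was at 0.71 and 0.64. With the deepest barcodes removed (those above the knee of the curve of UMIs by rank), Ifng in NK-like cells was at -0.020 at 3 days, over all cells at 0.66 and 2.34, and in alpha-beta T-like cells at -0.64 at 3 days. Cxcl9 in monocyte/macrophage-like cells was then at 0.032 and 4.86, Cxcl10 at -1.20 at 3 days, and Il12b in dendritic-like cells at -0.62 and -0.47. With the highest doublet scores removed, Ifng over all cells was at 0.48 and 1.86 and in alpha-beta T-like cells at 1.33 at 7 days. In Xist cells Ifng was at 1.89 and 1.11 in NK-like cells, 0.82 and 3.29 over all cells, and -2.45 and 2.30 in alpha-beta T-like cells. For the -2.45, 112 of the 142 3-day cells lay in cluster 11, which had few Ifng UMIs. In all Xist cells of their classes Cxcl9 was at 0.36 and 3.09 and Cxcl10 at -0.61 and 3.93 in monocyte/macrophage-like cells. There Cxcr3 was at -1.45 and -0.54 in T and NK-like cells, and Il12b at 4.74 and 3.56. In cells with Y-linked transcripts Ifng was at -0.47 and 1.23 over all cells and 1.04 at 7 days in alpha-beta T-like cells. There Cxcl9 was at least 0.47 and 4.72 above the floor of 3 counts, Cxcl10 was at -2.59 and 2.35, Cxcr3 at 0.16 and 0.34, and Il12b at -2.05 and -0.79. At resolution 0.8 Ifng was at -0.076 and -0.019 in NK-like cells and -0.018 at 3 days in alpha-beta T-like cells, Cxcl10 at 4.48 at 7 days and Il12b at 4.28 and 3.23. With log-normalized clusters Ifng was at -0.22 and -0.19 in NK-like cells and 2.14 at 7 days in alpha-beta T-like cells, and Cxcl9 at 0.16 and 4.02. With TMM scaling Ifng over all cells was at 0.48 at 3 days, Cxcl9 at -0.094 and 3.87, and Cxcl10 at 4.90 at 7 days. Without the highest cell of each library Ifng was at 1.94 over all cells and 1.51 in alpha-beta T-like cells at 7 days, Cxcl9 at -0.010 and 4.01, Cxcl10 at 0.72 and 5.24, and Il12b at 3.19 and 3.80. In Ly6C-high monocyte-like cells Cxcl9 at 7 days turned from -0.40 to 0.43 without the highest cell, and Stat4 over all cells at 3 days turned to 0.021 with TMM scaling.

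The share of Ifng UMIs in NK-like cells of PBS was 11.8% with at least 2000 UMIs, 23.6% without barcodes above the knee, 22.8% in Xist cells, 6.95% in cells with Y-linked transcripts, 21.8% at resolution 0.8 and 20.6% with log-normalized clusters. At 3 days it was 53.8% without barcodes above the knee, 54.8% in Xist cells, 39.6% in cells with Y-linked transcripts and 46.3% at resolution 0.8. At 7 days it was 25.0% without barcodes above the knee, 27.2% without the highest doublet scores, 24.0% in cells with Y-linked transcripts, 24.1% at resolution 0.8 and 25.8% without the highest cell. In alpha-beta T-like cells of PBS the share was 58.9% without barcodes above the knee, 43.0% without the highest doublet scores, 50.5% in Xist cells, 25.8% in cells with Y-linked transcripts, 31.7% at resolution 0.8 and 27.9% with log-normalized clusters. At 3 days these cells held 37.4% without barcodes above the knee, 23.8% in Xist cells, 25.4% in cells with Y-linked transcripts, 21.9% with log-normalized clusters and 24.8% without the highest cell. At 7 days they held 72.7% without barcodes above the knee, 60.0% without the highest doublet scores, 75.1% in Xist cells, 50.3% in cells with Y-linked transcripts, 66.0% at resolution 0.8, 59.1% with log-normalized clusters and 54.2% without the highest cell.

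Of the pathway list over all cells, 0 genes were past the fold upward at 3 days with a pseudocount of 50 and 2 with a log2 fold of 0.58, which also gave 1 downward, and at 7 days 13 were with a pseudocount of 50. In monocyte/macrophage-like cells at 3 days 4 were upward with a pseudocount of 50 and 5 in Xist cells, and 1 was downward with a fold of 0.58. In NK-like cells at 3 days 4 were upward with a pseudocount of 1, 0 with 50, 6 with a fold of 0.58, 3 without barcodes above the knee and 2 in Xist cells, where 7 were downward, and at 7 days 6 were upward with a pseudocount of 50 and 18 with a fold of 0.58. In Ly6C-high monocyte-like cells at 3 days 1 was upward with a pseudocount of 50, 10 with a fold of 0.58, 1 without barcodes above the knee and 2 without the highest doublet scores. Downward there were 5, 1, 5, 6, 4 and 4 with a pseudocount of 1, of 50, a fold of 0.58, without barcodes above the knee, without the highest doublet scores and in Xist cells. At 7 days 23 were upward with a fold of 0.58 and 8 in Xist cells, and 1 was downward with a pseudocount of 1, with a fold of 0.58 and without barcodes above the knee.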
